A study of Caenorhabditis elegans with 12 samples.

Results

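The 4 Caenorhabditis elegans genes described here, drd-1, Y16B4A.2, T16G1.6 and ZK512.7, were chosen by the measured tunicamycin change: with 1 probe set a gene, they are among the first 8 of the 48 genes called lower without overlap in manf-1 mutant larvae, ordered by that change, and drd-1 was also the first by it in wild type. Of 17118 genes with a probe set of their own, these 4 are described. All probe sets that the platform annotation assigns to 1 of these genes alone were taken, which gave 5 of the 22548 probe sets that are not array controls: 1 each for drd-1, Y16B4A.2 and T16G1.6 and 2 for ZK512.7. The study compared 4 groups of whole, synchronized L1 larvae, with 3 Affymetrix arrays each and 12 in all. These were manf-1(tm3603) mutants with tunicamycin, the same mutants with vehicle (DMSO), wild-type N2 with tunicamycin and N2 with vehicle. In every group the eggs hatched on plates that held no bacteria, larvae were washed off 24 h later, and the treatment lasted 5 h. The labels write the tunicamycin dose as 5 ug per mL in one place and 5 ug per uL in another. Each array was made from 6 ug of total RNA from whole animals, in which fewer cells of a type and less RNA per cell cannot be told apart. No label says whether the replicates came from separate cultures, and a p-value here therefore reflects only how these samples vary, which may be technical variation. With 3 arrays a group, precision is limited.

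Tunicamycin stops N-linked glycosylation at its opening step in the endoplasmic reticulum (ER), and the resulting misfolded proteins engage the unfolded protein response. That response raises ER chaperones, while part of the transcripts of other secreted or metabolic proteins can decline. MANF-1 is the worm homologue of the ER-resident secreted factors MANF and CDNF of vertebrates. Of the 4 genes, drd-1 takes its name from lower expression under dietary restriction and encodes a protein of the fatty acid hydroxylase family. Y16B4A.2 encodes a serine carboxypeptidase related to the lysosomal enzyme cathepsin A. T16G1.6 belongs to a run of adjacent genes that encode proteins with a kinase-like (CHK) domain.

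All values are log2 signals, so a difference of 1 is a 2-fold change. Within a group, arrays correlated with each other at Spearman's rho of 0.917 to 0.957. Background was taken from 32 bacterial and yeast control probe sets, whose median was 2.23 and whose 95th percentile was 3.34. Averaged over 5 worm control transcripts and set against the mean of the 12 arrays, the difference between 3′ and 5′ probe sets was between -0.68 and -0.10 on the 4 arrays numbered 2, against -0.14 and 0.48 on the other 8, so the tunicamycin changes are also given without the arrays numbered 2. The treatment was visible in hsp-4, the ER Hsp70 chaperone, which rose by 3.57 in mutants (SE 0.30, limma adjusted p = 3.34e-05) and by 3.22 in wild type (SE 0.30, limma adjusted p = 0.000142). Its paralogue hsp-3 rose by 2.06 in mutants (limma adjusted p = 5.1e-05) and by 1.81 in wild type (limma adjusted p = 0.000345). The mutated gene itself has 0 probe sets named for it, so its level could not check the genotype labels and was not analysed here. Among tissue markers with a probe set, those of intestine, hypodermis, body wall muscle, pharynx, neurons and germline passed the filter on low signals. The exceptions were end-1 of intestine and nos-2 of germline. Of the adult and oocyte markers, the yolk and oocyte genes vit-2, vit-5 and rme-2 did not pass, while vit-6 and msp-19 did.

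The signal of drd-1 was far lower with tunicamycin in both genotypes. It was 1.71, 3.48 and 2.50 in mutants with tunicamycin, against 4.75, 5.49 and 5.82 in mutants with vehicle. In wild type it was 2.92, 2.87 and 2.40 with tunicamycin, against 5.14, 7.28 and 5.74 with vehicle. The treated and vehicle arrays did not overlap in either genotype, and 1.27 log2 units lay between the closest arrays in mutants and 2.22 in wild type. The vehicle array numbered 2 was the highest of the wild-type arrays. The difference was -2.79 (SE 0.55) in mutants and -3.32 (SE 0.55) in wild type. Both contrasts had picked this gene, so no test is given for them. Without the arrays numbered 2 the differences were -3.18 in mutants and -2.78 in wild type. On all 3 treated wild-type arrays drd-1 lay at or under the controls' 95th percentile of that array, so the wild-type change is a bound: the gene was at least 6.96-fold lower with tunicamycin, set against that level, where the measured group means were 2.73 with tunicamycin and 6.06 with vehicle. That bound rested in part on the vehicle array numbered 2, and without it the gene was at least 4.55-fold lower. In mutants 2 of the 3 treated arrays were at or under that level and 1 was above it, with group means of 2.57 with tunicamycin and 5.35 with vehicle. With the 2 low arrays set to that level, drd-1 was at least 4.05-fold lower in mutants, and at least 3.44-fold lower without the vehicle array numbered 3. The changes of drd-1 in the 2 genotypes therefore have no order.

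Y16B4A.2, the carboxypeptidase gene, stayed well above background in every group. Its signal was 6.46, 5.62 and 6.07 in mutants with tunicamycin, against 8.74, 9.18 and 8.38 in mutants with vehicle. It was 7.19, 8.23 and 6.72 in wild type with tunicamycin, against 8.29, 9.40 and 8.11 in wild type with vehicle. The mutant groups stood 1.92 apart at their closest arrays, whereas in wild type the treated array numbered 2 reached into the vehicle range. The difference in mutants, which picked the gene, was -2.72 (SE 0.44), or -2.30 without the arrays numbered 2, and it is a description only. The wild-type difference had no part in that choice, although the wild-type arrays entered the shared estimate of the spread by which genes were called. The change in wild type was -1.22 (SE 0.44, 95% interval -2.17 to -0.27), with an unadjusted p of 0.0159 and a limma adjusted p of 0.502 over all probe sets tested. It did not pass the threshold of 0.05, and was -1.25 without the arrays numbered 2.

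T16G1.6 had the tightest treated values of the 4 genes in mutants. Its signal was 3.91, 3.74 and 4.10 in mutants with tunicamycin, against 6.35, 6.35 and 7.18 in mutants with vehicle. It was 4.58, 4.93 and 6.03 in wild type with tunicamycin, against 6.28, 5.53 and 6.26 in wild type with vehicle. In mutants the gap between the closest arrays was 2.25, the widest of the 5 probe sets there. In wild type the treated array numbered 3 lay above the vehicle array numbered 2. The difference was -2.71 (SE 0.43) in mutants, given as a description, and -2.76 without the arrays numbered 2. In wild type it was -0.84 (SE 0.43, 95% interval -1.77 to 0.08, limma adjusted p = 0.674) and did not pass, with -0.96 without those arrays.

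ZK512.7 was measured by 2 probe sets, which differed in the size of the change. The first, 186714_s_at, had 2.83, 1.84 and 3.60 in mutants with tunicamycin, against 5.74, 5.86 and 4.67 in mutants with vehicle. In wild type it had 4.81, 4.63 and 5.12 with tunicamycin, against 5.97, 5.14 and 5.52 with vehicle. Here too the mutant groups were separate, by 1.07, and the wild-type groups lay next to each other, 0.02 apart. The other probe set, 186713_at, had 4.06, 2.73 and 3.99 in mutants with tunicamycin, against 4.97, 5.23 and 4.45 in mutants with vehicle. In wild type it had 4.52, 4.22 and 5.09 with tunicamycin, against 4.83, 4.98 and 4.98 with vehicle, and those groups overlapped.

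The differences in mutants were -2.67 (SE 0.47) for 186714_s_at and -1.29 (SE 0.41) for 186713_at, both from the contrast that picked the gene. On 2 of the 3 treated mutant arrays 186714_s_at was at or under the controls' 95th percentile, and with these set to that level it was at least 4.04-fold lower. Without the arrays numbered 2 its measured difference was -1.99, and it was at least 3.23-fold lower. The value of 186713_at rested partly on the treated mutant array numbered 2: it was -0.86 without that array and -0.69 without all 4 arrays numbered 2. In wild type the changes were -0.69 (SE 0.47, 95% interval -1.70 to 0.32, limma adjusted p = 0.791) and -0.32 (SE 0.41, 95% interval -1.20 to 0.57, limma adjusted p = 0.906). Without the arrays numbered 2 they were -0.78 and -0.10. In the RefSeq annotation of assembly WBcel235, ZK512.7 lies inside the span of eat-4, the vesicular glutamate transporter gene. The eat-4 probe set 175628_at was under the controls' 95th percentile on all 12 arrays, and 192325_s_at was above it on 1 array each of mutants with tunicamycin, mutants with vehicle and wild type with vehicle.

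**Figure D1:**
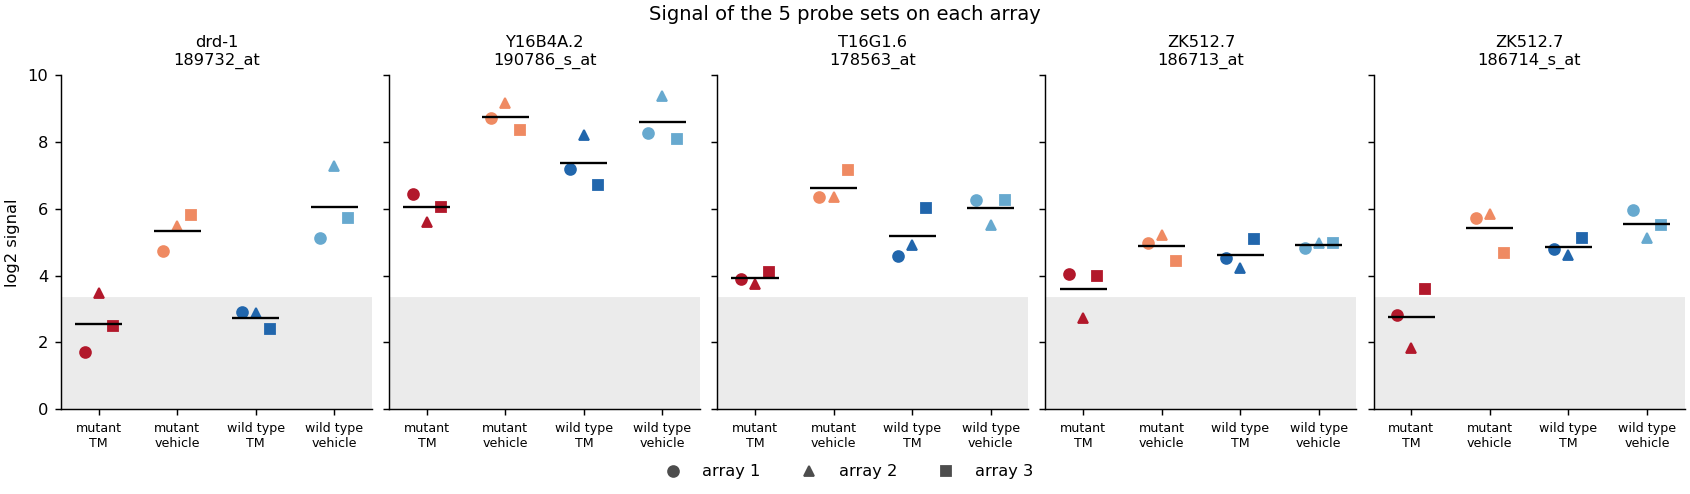
Log2 signal of the 5 probe sets of drd-1, Y16B4A.2, T16G1.6 and ZK512.7 on each of the 12 arrays, by group; symbols give the array number, black lines the group means and the grey band the range up to the background controls' 95th percentile of 3.34. Treated mutant arrays lie below vehicle mutant arrays in all 5 panels, while in wild type the groups of Y16B4A.2, T16G1.6 and 186713_at overlap.

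In the wild-type arrays, 0 of the 4 probe sets of Y16B4A.2, T16G1.6 and ZK512.7 passed by limma. At an unadjusted p under 0.05 there was 1 of these 4, beside 8.02% of all probe sets. Of all 14709 probe sets tested, 0.0340% were called lower there and 0.360% higher. These were 5 probe sets, those of drd-1, grl-7 and rab-6.1 and 2 that each match several pud genes, named here after their values were seen. The groups did not overlap for drd-1 and for 186714_s_at, where 5.44% of all probe sets had every treated wild-type array below every vehicle array. The median change over all probe sets in wild type was -0.03. By the measured wild-type change, drd-1 was at place 1 of 10844 genes counted from the lowest, Y16B4A.2 at 175, T16G1.6 at 577 and ZK512.7 at 950. The values of drd-1 and of grl-7, the second gene, differed by little, at -3.32 and -3.31.

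In mutants 0.415% of all probe sets were called lower, 0.659% were called higher, and 8.53% had every treated array below every vehicle array. All 5 probe sets of the 4 genes were separate in this way, but the choice of the genes had used this contrast, so nothing is read from their number. Among the 48 genes that were called lower there without overlap, drd-1 was at place 3, Y16B4A.2 at place 6, T16G1.6 at place 7 and ZK512.7 at place 8. That order counts 1 probe set a gene, the one with the highest mean, and thus leaves out 179093_at of T16G1.4, which was at -3.02. Just outside were exc-12 at place 9, with a change of -2.62, and cpr-4, a cathepsin B-like protease gene, at place 10, with -2.55. All 5 probe sets passed the filter on low signals, which asked for at least 3 arrays above the 40th percentile. The probe set of drd-1 did so through its vehicle arrays, since on treated arrays it exceeded that level on 1 of 3 in mutants and 0 of 3 in wild type.

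**Figure D2:**
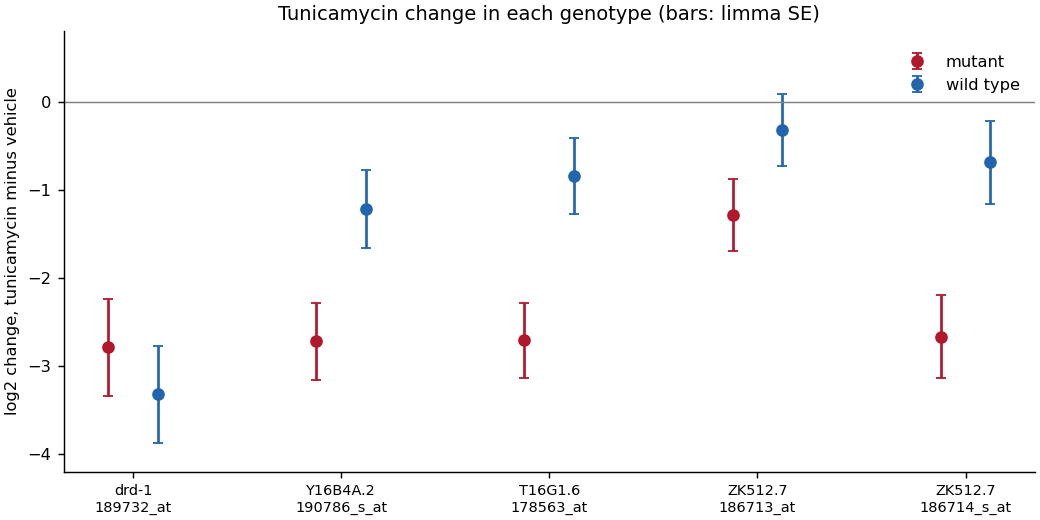
Change in log2 signal, tunicamycin minus vehicle, of each probe set in mutants (red) and wild type (blue), with limma standard errors. For drd-1 the points are the measured differences, -2.79 and -3.32, which have no order because treated signals were at or near background. For the other 4 probe sets the mutant value is the lower of the pair.

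The genotypes were next set side by side within each treatment. With tunicamycin the mutant signal lay below the wild-type signal on every array for Y16B4A.2, T16G1.6 and both ZK512.7 probe sets, a pattern that 5.09% of all probe sets showed. The differences, mutants minus wild type, were -1.33 (SE 0.44) for Y16B4A.2, -1.26 (SE 0.43) for T16G1.6, -2.10 (SE 0.47) for 186714_s_at and -1.02 (SE 0.41) for 186713_at. For drd-1 it was -0.17 (SE 0.55), and the groups overlapped close to background. The mutant signal of 186714_s_at with tunicamycin was at or under the controls' 95th percentile on 2 of 3 arrays. With vehicle the differences were smaller for these 4 probe sets: 0.17 for Y16B4A.2, 0.60 for T16G1.6, -0.12 for 186714_s_at and -0.04 for 186713_at. For drd-1 the difference with vehicle was -0.70. Of the 5 probe sets, T16G1.6 was higher on every mutant vehicle array than on every wild-type vehicle array, as were 5.95% of all probe sets, and the others overlapped.

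These differences share the mutant arrays whose change picked the genes, which favours a low treated and a high vehicle signal in mutants, so they carry no test. The same holds for the difference between the 2 tunicamycin changes, mutants minus wild type. It was -1.50 (SE 0.63) for Y16B4A.2, -1.86 (SE 0.61) for T16G1.6, -1.98 (SE 0.67) for 186714_s_at and -0.97 (SE 0.58) for 186713_at. For drd-1, whose treated signals were at or near background, it was 0.54 (SE 0.78). The value of 186714_s_at also rests on treated mutant signals at or near background. With its 2 low arrays set to the controls' 95th percentile, its fall in mutants was at least 2.01, against a measured 0.69 in wild type. Over all probe sets, 0.00680% were called by limma for the difference between the 2 tunicamycin changes.

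Ordered by group mean from the lowest, Y16B4A.2 had 6.05 ± 0.42 in mutants with tunicamycin, 7.38 ± 0.78 in wild type with tunicamycin, 8.60 ± 0.70 in wild type with vehicle and 8.77 ± 0.40 in mutants with vehicle (SD, n = 3 each). The lowest group stood apart from its neighbour, and the other neighbours overlapped. T16G1.6 had the same order, with 3.92 ± 0.18 in mutants with tunicamycin, 5.18 ± 0.76 in wild type with tunicamycin, 6.02 ± 0.43 in wild type with vehicle and 6.62 ± 0.48 in mutants with vehicle (SD, n = 3 each). There the wild-type groups overlapped and the other neighbours did not. For 186714_s_at of ZK512.7 the means were 2.76 ± 0.88 in mutants with tunicamycin, 4.85 ± 0.25 in wild type with tunicamycin, then 5.42 ± 0.66 in vehicle mutants and 5.54 ± 0.42 in wild type with vehicle (SD, n = 3 each). The means of 186713_at kept this order, with 3.59 ± 0.75 in mutants with tunicamycin, 4.61 ± 0.45 in wild type with tunicamycin, then 4.88 ± 0.40 in vehicle mutants and 4.93 ± 0.09 in wild type with vehicle (SD, n = 3 each). In both probe sets the lowest group was the one free of overlap with its neighbour. For drd-1, mutants with tunicamycin (2.57 ± 0.89) overlapped wild type with tunicamycin (2.73 ± 0.29), and mutants with vehicle (5.35 ± 0.55) overlapped wild type with vehicle (6.06 ± 1.10, SD, n = 3 each).

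A genotype effect averaged over both treatments is independent of the mutant tunicamycin contrast in this balanced design and was tested. It asks whether the mean level over both treatments differs in mutants. It does not tell a difference in both treatments from a difference in a single treatment. By limma 0 of the 5 probe sets passed, beside 0.0136% of all probe sets called in either direction, which were tag-244 and C34H4.1, named after their values were seen. The difference was -1.11 (SE 0.33, 95% interval -1.82 to -0.39, unadjusted p = 0.00498, limma adjusted p = 0.687) for 186714_s_at, the only one of the 5 with an unadjusted p under 0.05, beside 5.91% of all probe sets. It was -0.43 for drd-1 (95% interval -1.27 to 0.40), -0.58 for Y16B4A.2 (-1.26 to 0.09), -0.33 for T16G1.6 (-0.98 to 0.32) and -0.53 for 186713_at (-1.16 to 0.09), with limma adjusted p-values between 0.845 and 0.915. Without the arrays numbered 2 the value of Y16B4A.2 was -0.16 (limma adjusted p = 0.963). For 186714_s_at the average joined -2.10 with tunicamycin and -0.12 with vehicle.

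Relatives and neighbours of the 4 genes were described next. In the WBcel235 annotation T16G1.7, T16G1.6, T16G1.5, T16G1.4 and T16G1.3 follow each other on the chromosome, and T16G1.2 comes before T16G1.7. T16G1.4 has 2 probe sets. Its 179093_at had 3.90, 2.59 and 5.03 in mutants with tunicamycin, against 6.86, 6.52 and 7.20 in mutants with vehicle. The treated signal of 2.59 lay under the controls' 95th percentile of its array, 3.20. In mutants 179093_at fell by 3.02 on the log2 scale (SE 0.59, limma adjusted p = 0.0225). The second probe set, 179094_s_at, fell by 2.17 there (SE 0.47, limma adjusted p = 0.0415). In wild type the 2 probe sets were at -1.09 (limma adjusted p = 0.693) and -0.73 (limma adjusted p = 0.773), so T16G1.4 passed in the same genotype in which T16G1.6 was picked. The difference of the genotypes was not tested for this gene. Without the arrays numbered 2 the mutant changes of T16G1.4 were -2.56 (limma adjusted p = 0.105) and -2.05 (limma adjusted p = 0.255), so both calls were lost.

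T16G1.7 and T16G1.5 had treated arrays below all vehicle arrays in both genotypes, without passing. Such separation was seen in 8.53% of all probe sets in mutants and 5.44% in wild type. For T16G1.5 the closest treated and vehicle arrays nearly touched, at 3.64 against 3.66 in mutants and 3.90 against 3.91 in wild type. Its treated signals of 3.42 and 3.04 in mutants and 2.83 in wild type lay under the controls' 95th percentile of that array. The other treated signals of T16G1.5 lay above it. The changes of T16G1.7 and T16G1.5 were -1.32 and -1.11 in mutants and -0.89 and -0.76 in wild type. Their limma adjusted p-values were 0.252 and 0.364 in mutants and 0.648 and 0.693 in wild type. T16G1.2 was at -0.11 in mutants and 0.16 in wild type, and T16G1.9 at 0.72 in mutants and -0.63 in wild type. T16G1.3 did not pass the filter on low signals. Of the 5 T16G1 genes measured besides T16G1.6, 1 passed downward and 0 upward in mutants, with a median change of -1.11, beside a median of -0.02 over all probe sets. Over all probe sets, 0.415% were called lower and 0.659% higher in mutants. In wild type 0 of the 5 passed, with a median of -0.73, where 0.0340% of all probe sets were called lower and 0.360% higher. The T16G1 list was made by symbol, and how similar its genes are in sequence was not examined. The probe sets of T16G1.7, T16G1.5 and 1 of those of T16G1.4, like those of Y16B4A.2 and 186714_s_at, carry the suffix with which Affymetrix marks probes that may match more than 1 transcript. Whether they share signal was not tested. The T16G1.6 probe set carries no such suffix.

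Beside drd-1 lies F49E12.10, a further gene of the fatty acid hydroxylase family. Its signal was 4.47, 3.38 and 2.99 in mutants with tunicamycin, against 5.16, 5.79 and 5.76 in mutants with vehicle. It was 5.07, 4.38 and 4.98 in wild type with tunicamycin, against 5.65, 5.52 and 4.91 in wild type with vehicle. The treated mutant signal of 2.99 lay under the controls' 95th percentile of its array, 3.09. F49E12.10 fell by 1.96 in mutants (SE 0.43, limma adjusted p = 0.042), and in wild type it was at -0.55 (SE 0.43, limma adjusted p = 0.821). Thus drd-1 had a low treated signal in both genotypes, while its neighbour passed in mutants and had overlapping groups in wild type. No test of the difference between the genotypes is given for F49E12.10. The call of F49E12.10 was close to the threshold and was lost in most alternatives, for example with an adjusted p of 0.29 without the arrays numbered 2. Of the other family members on the list, F35C8.5 was at 0.07 in mutants and -0.19 in wild type, and fath-1, a fatty acid 2-hydroxylase homologue, at -0.77 and -0.06. The list of 4 measured genes, which also held the desaturase homologue ttm-5, had a median of -0.83 in mutants and -0.15 in wild type, with 1 lower call in mutants and 0 in wild type. Of all probe sets, 0.415% were called lower in mutants and 0.0340% in wild type.

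**Figure D3:**
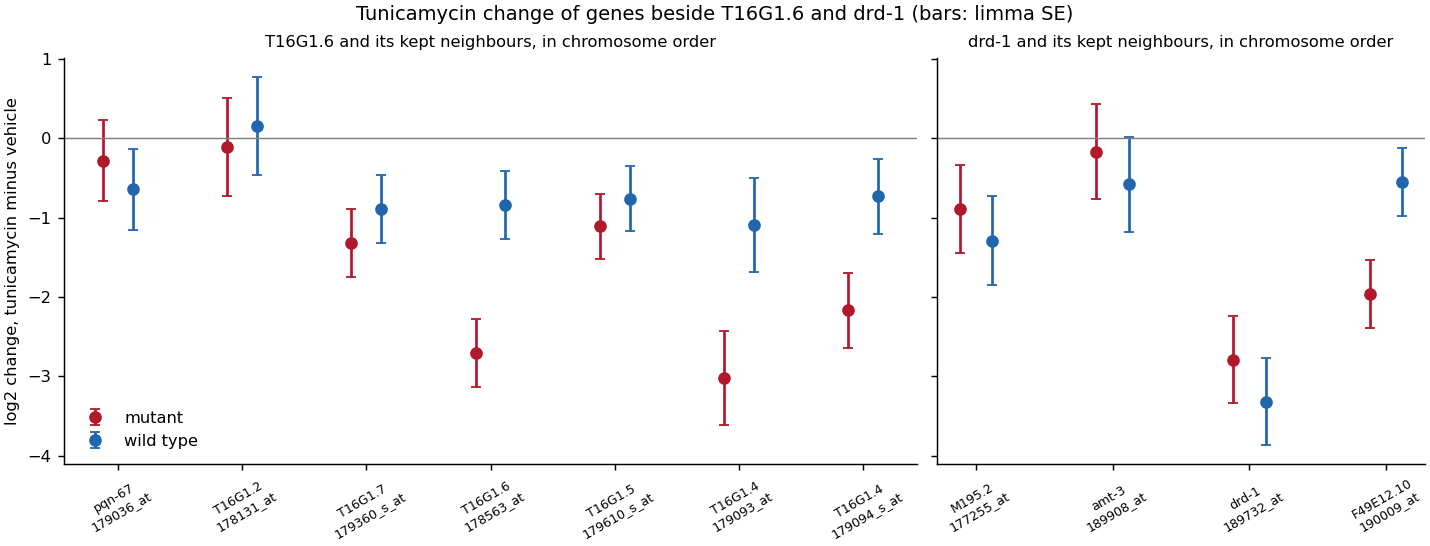
Change in log2 signal, tunicamycin minus vehicle, in mutants (red) and wild type (blue) for T16G1.6 and drd-1 and the neighbouring genes that passed the filter on low signals, in chromosome order, with limma standard errors. T16G1.6, T16G1.4 and F49E12.10 have mutant values between -3.02 and -1.96 and wild-type values between -1.09 and -0.55.

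The 6 other serine carboxypeptidase genes measured had a median change of -0.54 in mutants and -0.31 in wild type, and 0 of them passed in either genotype or in either direction. The largest change among them was that of ctsa-2 in mutants, -1.36 (SE 0.40, limma adjusted p = 0.173), with -0.07 in wild type. Next in mutants was ctsa-4.2 at -1.08 (limma adjusted p = 0.567), with 0.13 in wild type. The largest fall among them in wild type was that of ctsa-1.1, at -0.76 (limma adjusted p = 0.708), with 0.00 in mutants. Of the other drd genes, 2 were measured. They were drd-5 at -1.16 in mutants and -0.58 in wild type, and drd-10 at 0.28 and 0.34, and neither passed. Around Y16B4A.2 the largest change was that of tatn-1, a tyrosine aminotransferase gene, at -1.03 in mutants (limma adjusted p = 0.293) and -1.25 in wild type (limma adjusted p = 0.256). The gene after ZK512.7 in chromosome order, ZK512.2, was at 0.45 in mutants and 0.82 in wild type (limma adjusted p = 0.664). ZK512.4, at place 3 after ZK512.7, was at 0.73 in mutants and 1.47 in wild type (limma adjusted p = 0.226). Of the 16 chromosome neighbours measured, 2 passed downward in mutants, T16G1.4 and F49E12.10, where 0.415% of all probe sets were called lower. In wild type 0 of the 16 passed, where 0.0340% were called lower.

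Of the tissue markers, 0 passed for the tunicamycin change in either genotype. Of all probe sets, 0.415% were called lower and 0.659% higher in mutants, and 0.0340% and 0.360% in wild type. The 10 intestine markers measured had a median of -0.51 in mutants and -0.17 in wild type, and 7 and 8 of them were below 0. Their mean level lay between 6.76 and 6.99 on the mutant tunicamycin arrays, against 7.15 and 7.50 on the mutant vehicle arrays. In wild type it lay between 6.87 and 7.31 with tunicamycin, against 7.04 and 7.58 with vehicle. The 10 hypodermis markers had medians of -0.64 in mutants and -0.38 in wild type, with 10 and 9 below 0. Their mean level lay between 6.92 and 7.25 in mutants with tunicamycin, against 7.17 and 8.06 in mutants with vehicle. In wild type it lay between 7.35 and 7.65 with tunicamycin, against 7.69 and 8.23 with vehicle. The part of these shifts in the lower signals of the 4 genes was not tested. Medians of the body wall muscle, neuron and germline markers were between -0.14 and 0.15 in mutants and between -0.24 and -0.06 in wild type. Pharynx markers had -0.07 in mutants and 0.49 in wild type, and the 2 adult and oocyte markers that passed the filter had 0.31 and 0.29.

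**Figure D4:**
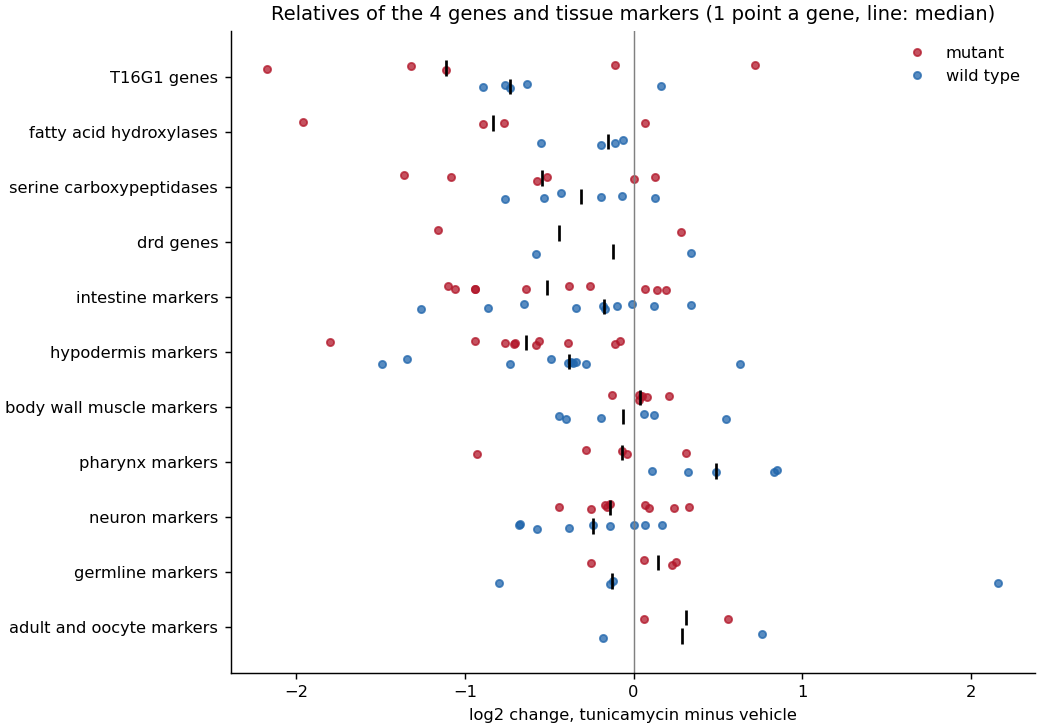
Change in log2 signal, tunicamycin minus vehicle, of relatives of the 4 genes and of tissue markers in mutants (red) and wild type (blue), with 1 point for each gene, the 4 genes left out, and black lines at the medians. The T16G1 genes, listed by symbol, have the lowest mutant median, -1.11, and the body wall muscle markers lie close to 0.

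The genes with the nearest profiles were found by the root-mean-square distance, in log2 units, between signals over the 12 arrays after each gene was centred on its own mean. Over these arrays the distance reflects both treatment and array, and it is a description. T16G1.6 had the closest partners: T16G1.4 at 0.38, clc-19, a claudin-like gene, at 0.41, cpr-4 at 0.48 and the collagen gene col-176 at 0.48, where the median over all genes was 1.20. For ZK512.7 the nearest were atz-1 at 0.53, the intestinal intermediate filament gene ifd-2 at 0.54, T22F3.11 at 0.57 and the aldehyde dehydrogenase gene alh-5 at 0.57. In all 8 of these genes the change in mutants was the lower of the pair, at -2.55 to -1.74 in mutants, against -1.22 to -0.14 in wild type. Since these genes were taken for their likeness to T16G1.6 and ZK512.7, that direction follows from the choice and is no result of its own.

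Y16B4A.2 was nearest to ifc-1, a further intestinal intermediate filament gene, at 0.60, to C32H11.4 at 0.60, to the nuclear hormone receptor gene nhr-142 at 0.63 and to the acid phosphatase gene pho-11 at 0.63. The changes of ifc-1 were -3.04 in mutants and -1.51 in wild type. The nearest genes to drd-1 were grl-7 at 0.91, pcp-3 at 0.96, C32H11.4 at 1.01 and Y16B4A.2 at 1.03. The median distance over all genes was 1.74 for drd-1, 1.29 for Y16B4A.2 and 1.32 for ZK512.7. Of the genes nearest to drd-1, grl-7 had changes of -1.55 in mutants and -3.31 in wild type. Among the 4 genes themselves, T16G1.6 and ZK512.7 were 0.72 apart, Y16B4A.2 and ZK512.7 0.75, and Y16B4A.2 and T16G1.6 0.83. The distance from drd-1 was 1.03 to Y16B4A.2, 1.24 to T16G1.6 and 1.42 to ZK512.7.

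**Figure D5:**
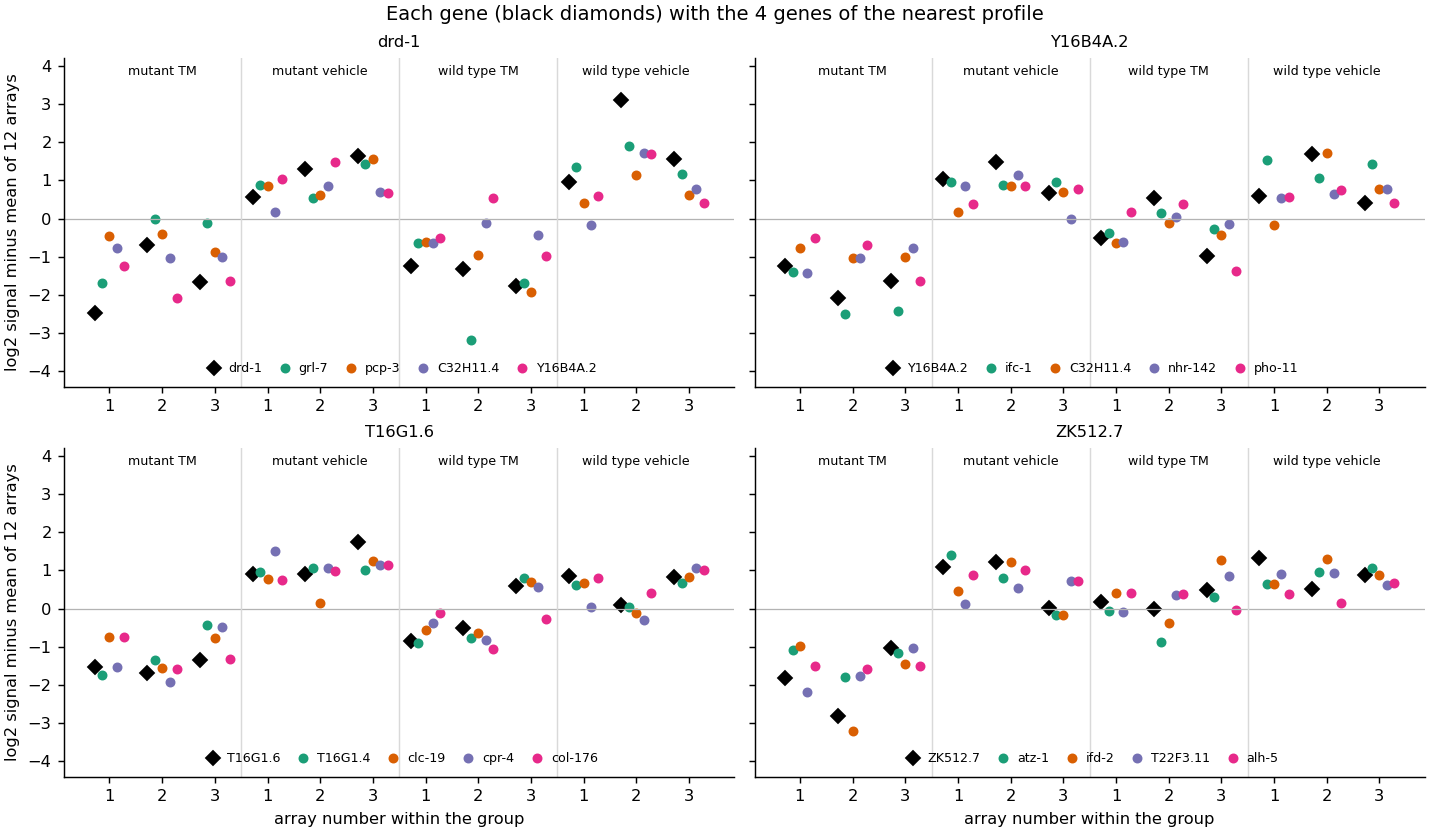
Log2 signal minus the gene's mean over the 12 arrays, by group and array number, for each of the 4 genes (black diamonds) and the 4 genes of the nearest profile (coloured points). For T16G1.6 and ZK512.7 the mutant tunicamycin arrays form the low group, while for drd-1 the tunicamycin arrays of both genotypes are low and the wild-type vehicle array numbered 2 is the highest point.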

How the data were processed

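The authors deposited log2 signals for 22625 Affymetrix probe sets on 12 arrays. That the unit is log2 was read from the values. Per the submitters' processing notes, MAS5 was used, with no role or version given, and the method of normalization between arrays is not given in the sources used here. The array medians lay between 3.957 and 4.052, so differences in total RNA between groups would not be seen. No 2 arrays were identical.

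The 77 Affymetrix controls were left out. Of the 22548 others, 14709 that exceeded the 40th percentile of their array on at least 3 arrays were kept. Of these, 13689 have 1 gene in the platform annotation, 481 several and 539 none, and 13649 matched the RefSeq table of WBcel235 by gene number. For lists and profiles, each of 10844 genes was represented by its probe set with the highest mean. Since no genome build comes with the values, coordinates are left out. No sequences were printed.

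Group means were fitted with limma 3.58.1 in R 4.3.3 (lmFit, eBayes with trend, 8 residual and 5.93 prior degrees of freedom), tested on simulated data. Tests were two-sided, with Benjamini-Hochberg adjustment over all 14709 probe sets and a threshold of 0.05. The genes and lists were chosen with earlier results of these data known. Named genes were the 4 genes, the 4 genes of nearest profile to each, members of the lists that passed or else had the largest changes, 3 neighbours on each side, hsp-4, hsp-3 and manf-1. The description of gene families by RefSeq text that the design named could not be used, so lists hold the genes named one by one or by symbol. Alternatives were other normalizations, filters, an offset of 4.7 before log2, other variance models, the replicate number as a block, and leaving out arrays.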

Additional observations from a re-analysis of the deposited data

How the results depend on the processing

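Each value of the 4 genes was recomputed under up to 23 alternatives, 340 values in all. None of these changed sign. Of the 202 that carry a test, 0 had an adjusted p under 0.05, as in the values reported. The other 138, from the contrasts that chose the genes, carry none. In mutants, 3 values moved by more than the spread between replicates: 186714_s_at of ZK512.7 was at -2.02 with the offset before log2 and -1.99 without the arrays numbered 2, and 186713_at was at -0.69 without those arrays. Limma adjusted p-values in wild type ranged from 0.255 to 0.832 for Y16B4A.2, 0.442 to 0.88 for T16G1.6, 0.732 to 0.913 for 186714_s_at and 0.823 to 0.982 for 186713_at. The counts over all probe sets moved more. The 5 lower calls in wild type became 8 with quantile normalization, 10 with the filter at the 60th percentile, 3 without the trend, 1 in the unmoderated test, 1 when only the wild-type groups were fitted and 1 without the arrays numbered 2, and were 2 to 10 without single arrays. The 61 lower calls in mutants became 33 in the unmoderated test and 21 without the arrays numbered 2, and were 20 to 68 without single arrays. The 2 genotype calls became 1 with no filter, 1 with the offset, 1 with the replicate block and 0 without the arrays numbered 2, and were 1 to 3 without single arrays. For these counts the cause was not tested.

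Same-numbered arrays did not deviate together in every pair (correlations between -0.01 and 0.18), so the numbers were not taken to pair the samples. Arrays of different numbers lay between -0.13 and 0.13. Between the genotypes with tunicamycin, same-numbered arrays were at 0.09 to 0.18 and the others at -0.11 to -0.03. The arrays numbered 2 were at 0.09 to 0.13 with each other in every comparison. Whether the number marks a batch was not tested. With the replicate block there were 5 lower calls in wild type and 81 in mutants. The mutant calls of T16G1.4 and F49E12.10, recomputed in the same way after seeing the data, were lost without some single arrays. The adjusted p was then 0.0115 to 0.107 for 179093_at, which lost its call without any mutant array but the treated one numbered 3, 0.0143 to 0.175 for 179094_s_at and 0.0195 to 0.229 for F49E12.10. The bound of drd-1 in wild type, recomputed after seeing the data, was at least 4.55-fold to at least 9.55-fold without single vehicle arrays. Recomputed likewise in mutants, it was at least 3.44-fold to at least 4.99-fold for drd-1 and at least 3.47-fold to at least 5.25-fold for 186714_s_at. Signals near the background controls limit the treated values of drd-1 and of 186714_s_at in mutants.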
